A study of Caenorhabditis elegans with 2 samples.

Results

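The regions described here are the places where a tagged ETS-5 protein gave strong chromatin immunoprecipitation signal with the summit inside protein-coding sequence, away from any gene start. They were selected by the authors' pooled signal: the 10000 regions of highest signal were taken from a ranked list of 126002, the summit of each was placed on the gene annotation, and those with a summit in a coding segment and more than 500 bp from every start site of a protein-coding gene were kept. That left 2756 of the 10000, or 27.6%. The remaining 7244 had their summit at a promoter (2548, within 500 bp of a start site), between genes (2319), in an intron (2177) or in an untranslated exon (200). In the rest of the ranked list, a further 26886 regions met the same placement rule at a lower signal, and these lower ranked coding-exon regions are the comparison used below. Since the signal chose the regions, their signal, their ranks and their passing of a threshold built on the same reads are given as descriptions.

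ETS-5 is a transcription factor with an ETS domain, a DNA-binding fold that contacts a core of GGA and, for many family members, prefers CCGGAA. In Caenorhabditis elegans it is known as a regulator of the gas-sensing BAG neuron pair in the head. Transcription factors are usually sought at promoters and enhancers. Signal within exons is also found for many of them, and coding exons differ from promoters and introns in base composition, in constraint and in how often their sequence recurs among related genes.

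Animals of 1 transgenic strain, OP809, were used, in 1 group of 2 biological replicates, and there is no second condition. The strain carries the insertion wgIs809, in which ets-5 is joined to a TY1 EGFP 3xFLAG tag, together with unc-119(+), in a background of unc-119 (tm4063). The tagged copy sits on a construct that also carries DNA flanking ets-5, so reads from that interval can come from the transgene as well as from the chromosome. Whole first-stage larvae, starved after bleaching and aged 6 hours, were sonicated and precipitated with anti-GFP, although the antibody field of the labels names ets-5. Because whole animals were used, a region strong in few cells and one weak in many cells cannot be told apart. Regions came as a pooled ranked list, a main list of 250 passing regions, a conservative list of 177, and a ranked and a passing list for each replicate (108309 and 21 regions in replicate 1, 92443 and 26 in replicate 2). Read depth is unknown from these lists. The intervals printed below are 95% intervals that cover counting error only.

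Sequences around the summits of several regions are printed first, because base composition and a short list of words are what the later comparisons turn on. All are from the RefSeq genome of build WBcel235, whose coordinates are those of ce11, and each spans 60 bp on either side of the summit and is given on the host gene's strand. Capitals mark 3 words wherever they occur in either orientation: CCGGAA (or TTCCGG), the ETS word; CGCGCA (or TGCGCG), a word rich in CG; and AAAAAA (or TTTTTT). The first 4 sequences are from the regions of highest pooled signal, and of these dos-3 holds a capitalised word.
dos-3, chrIII:835863-835983, minus strand: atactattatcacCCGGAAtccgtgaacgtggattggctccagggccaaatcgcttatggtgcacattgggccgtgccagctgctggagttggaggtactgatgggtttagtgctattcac
clc-7, chrX:5074070-5074190, plus strand: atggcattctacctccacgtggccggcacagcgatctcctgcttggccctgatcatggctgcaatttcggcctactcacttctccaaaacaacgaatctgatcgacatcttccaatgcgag
siah-1, chrIV:3746016-3746136, plus strand: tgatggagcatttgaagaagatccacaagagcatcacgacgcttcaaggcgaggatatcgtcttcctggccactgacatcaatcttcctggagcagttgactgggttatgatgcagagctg
vit-2, chrX:5102741-5102861, plus strand: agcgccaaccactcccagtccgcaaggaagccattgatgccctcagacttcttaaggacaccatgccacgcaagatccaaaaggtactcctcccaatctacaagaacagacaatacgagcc
The next 2, with dos-3, are among the strongest that hold the ETS word within the stretch shown.
cpg-8, chrV:4691806-4691926, minus strand: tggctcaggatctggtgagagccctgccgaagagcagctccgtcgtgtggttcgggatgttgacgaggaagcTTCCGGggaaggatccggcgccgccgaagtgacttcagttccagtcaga
ain-1, chrX:16615172-16615292, plus strand: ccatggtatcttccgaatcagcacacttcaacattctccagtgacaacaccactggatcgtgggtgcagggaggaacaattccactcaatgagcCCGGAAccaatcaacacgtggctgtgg
The following pair are among the strongest with CGCGCA.
nkat-3, chrX:15443038-15443158, plus strand: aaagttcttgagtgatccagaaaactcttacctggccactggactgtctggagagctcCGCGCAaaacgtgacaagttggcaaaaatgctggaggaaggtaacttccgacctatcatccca
gyf-1, chrII:6685181-6685301, plus strand: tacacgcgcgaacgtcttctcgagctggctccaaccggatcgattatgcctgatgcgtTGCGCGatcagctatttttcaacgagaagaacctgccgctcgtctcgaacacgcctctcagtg
The last pair are among the strongest with AAAAAA. Both stretches run into a neighbouring intron, as the summit is 12 bp from an end of its coding segment in F02C12.1 and 0 bp in ztf-18. In both, the capitalised TTTTTT lies outside that coding segment. The F02C12.1 stretch also holds the ETS word at 2 places.
F02C12.1, chrX:13402634-13402754, plus strand: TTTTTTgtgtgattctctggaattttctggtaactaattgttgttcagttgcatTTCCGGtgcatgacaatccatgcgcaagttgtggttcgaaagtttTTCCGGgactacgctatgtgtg
ztf-18, chrIII:895040-895160, minus strand: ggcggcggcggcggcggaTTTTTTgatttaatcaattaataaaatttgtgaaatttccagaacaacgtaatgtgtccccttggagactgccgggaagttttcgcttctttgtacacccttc

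Coding-exon regions were a smaller share of the very strongest signal than of the remainder. Among the 250 regions of highest signal, 41 (16.4%, interval 12.03% to 21.6%) lay in coding exons, against 195 of the next 750, 27.5% of ranks 1001 to 2500 and 28.4% (27.2% to 29.7%) of ranks 5001 to 10000. Beyond rank 10000 the share declined, from 27.3% in ranks 10001 to 20000 to 20.6% (20.2% to 20.99%) in the last bin. Intergenic regions took the largest share of the top 250, 39.6%, and promoters took 28.4%. Eligible coding sequence, meaning coding bases more than 500 bp from every start site, made up 17.9% of the genome, beside 27.6% of the summits of the 10000 strongest regions and 20.6% of those in the last bin.

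**Figure D1:**
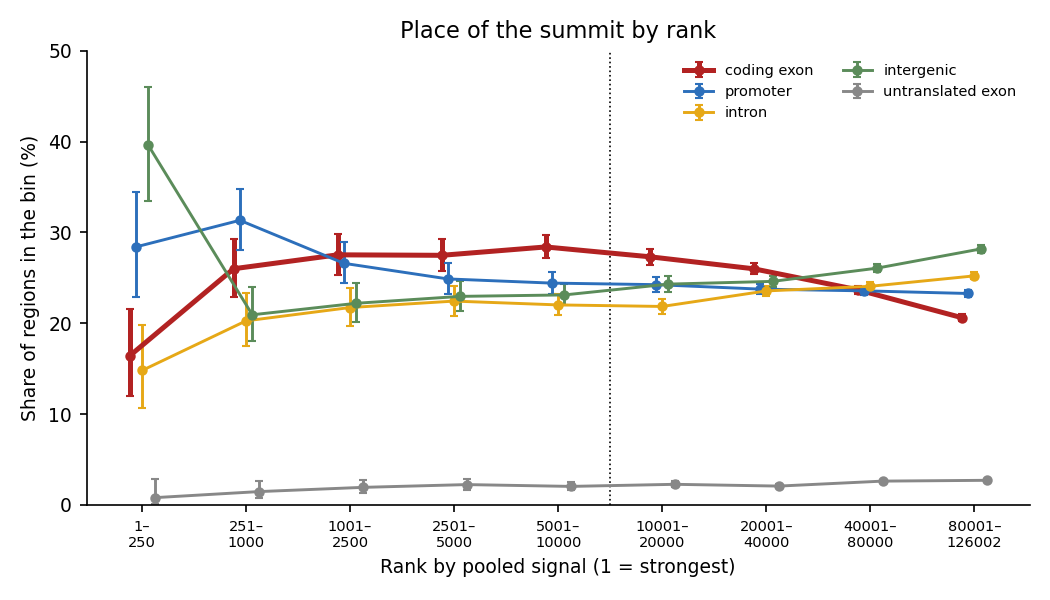
Share of regions with the summit in each place class, by rank on the pooled signal, with exact 95% binomial intervals; the dotted line is the limit of the 10000 strongest. The coding-exon share is 16.4% in the first bin, 28.4% in ranks 5001 to 10000 and 20.6% in the last.

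The 6 highest pooled signals in coding exons, between 102.9 and 128 on the authors' unstated scale, lay in 5 genes. The highest, 128, was in the last of 11 coding segments of dos-3, a member of the C. elegans family of proteins with a DOS motif related to Notch co-ligands. Its overlapping region had a signal of 94.3 in replicate 1 and 31.7 in replicate 2, ranking 28 and 2436 there. Next came ZC247.1 with 123 (49.1 in replicate 1, 70.2 in replicate 2), where all sequence within 100 bp of the summit was repeated. Then clc-7, a claudin-like membrane protein gene, had 122 (91.9 and 44.1), and a second ZC247.1 region had 112.5 (59.4 and 59.5). The replicates thus differed about 3-fold at dos-3 and little at the second ZC247.1 region. The siah-1 gene, which encodes a RING-type ubiquitin ligase, had 107 (66.9 and 42.9). The yolk protein gene vit-2 had 102.9 (57.2 and 55.4). The clc-7 and vit-2 regions lie within 20 kb of ets-5, in DNA of which the transgene carries an unstated part.

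The next 14 regions ran from 98.9 down to 86.1 and were spread over unrelated gene functions. W06H8.6 had a pooled signal of 98.9, with 38.2 in replicate 1 and 62.8 in replicate 2. The afadin gene afd-1, encoding a junction protein that binds actin, had 96.0 (48.4 and 49.7). The death-associated protein kinase gene dapk-1 had 93.2 (58.8 and 38.5). These 3 summits lay in the last coding segment, as did those of nsph-3.1 (91.1), rsp-7 (88.5) and cpg-8 (86.1). Y39G10AR.15, F58G1.7 and nrsn-1, a neurensin gene, had 92.1, 92.1 and 91.1. The Mind bomb ubiquitin ligase gene mib-1 had 89.4 (49.9 and 38.7), and gcy-18, a receptor guanylyl cyclase of the thermosensory AFD neurons, had 88.6 (43.5 and 46.9). The remaining genes were rpoa-1 (88.2), for the largest subunit of RNA polymerase I, swsn-1 (87.5), for a SWI/SNF chromatin remodelling subunit, and nkat-3 (86.4), for a kynurenine aminotransferase. The splicing factor gene rsp-7 had the widest gap in this group, 62.7 in replicate 1 and 26.3 in replicate 2. F02C12.1, lower in pooled signal (80.6), was among the 5 highest in replicate 1 with 60.8 and had 18.4 in replicate 2. For nsph-3.1 the order was the opposite, 31.0 and 52.2, and its score of 255, on a scale that ends at 1000, was the lowest of the 20.

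**Figure D2:**
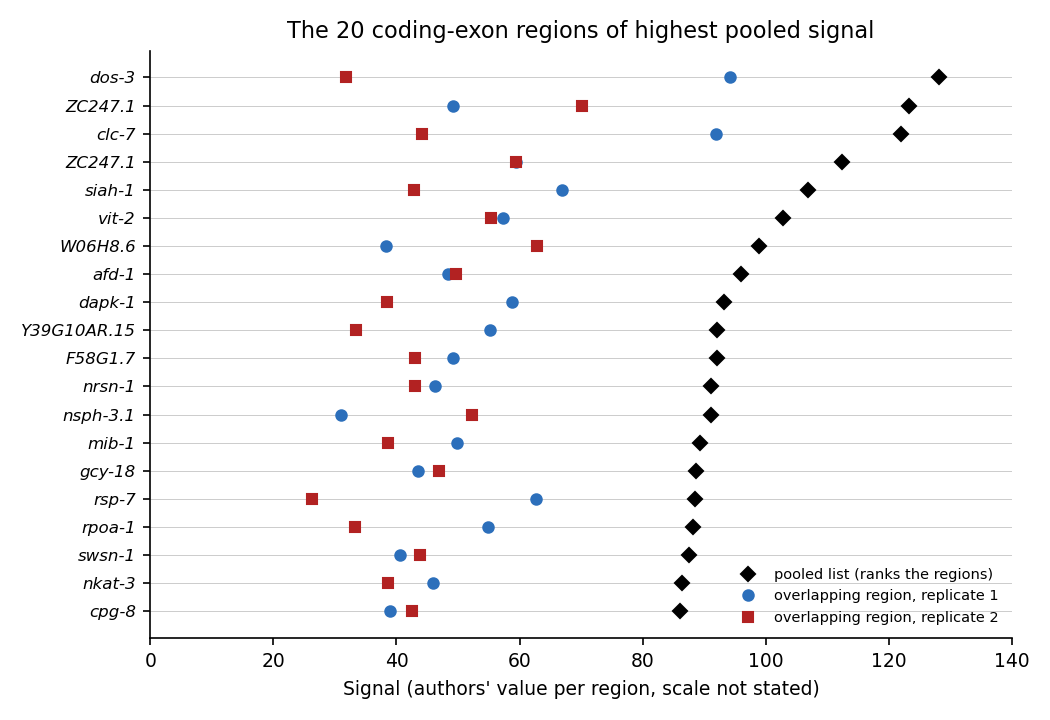
Signal of the 20 coding-exon regions of highest pooled signal, 1 line each: pooled list (diamonds) and the overlapping ranked region in replicate 1 (circles) and replicate 2 (squares). The dos-3 region reaches 94.3 in replicate 1 and 31.7 in replicate 2, while vit-2 and afd-1 are nearly level.

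At the other end, the last regions inside the limit were in dcar-1 (46.77), col-180 (46.77) and F55D12.5 (46.77), and the first outside it were in suco-1 (46.76), fbxb-74 (46.75) and nas-31 (46.74). The limit therefore falls within a continuous run of values. The median pooled signal was 52.7 in the coding-exon regions, 53.0 in the other strongest regions and 23.7 in the lower ranked coding-exon regions.

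Most of the coding-exon regions overlapped a ranked region in each replicate, though the replicates put them in different orders. An overlapping region was present in replicate 1 for 2679 of them (97.2%), in replicate 2 for 2615 (94.9%) and in both for 2541 (92.2%, interval 91.1% to 93.2%). An overlap needed only 1 bp, and the lists are long, with 108309 and 92443 regions. The share that randomly placed windows would reach was not computed, so these shares alone do not measure reproducibility. The same figure was 92.5% for the strongest regions in other places and 56.4% for the lower ranked coding-exon regions. Only 567 (20.6%) overlapped the 10000 strongest of both replicates, and 394 (14.3%) the 10000 strongest of neither. The corresponding shares in other places were 22.1% and 14.4%. Among the 2541 with a region in both, the signal of replicate 1 exceeded that of replicate 2 in 1635, and the median ratio was 1.17 (quartiles 0.882 and 1.57). It was over 2 times as high in replicate 1 for 288 and in replicate 2 for 73. Spearman's rho between the replicates' signals over these 2541 was -0.35. The regions were chosen by a signal pooled from both replicates, so the 2 signals are not free of that choice. No reading of the sign is made, and its cause was not tested.

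Absence from a replicate reached regions of fairly high pooled signal. The gene ing-3, encoding an inhibitor-of-growth family chromatin protein, had a pooled signal of 80.03 and a region of 37.7 in replicate 2, but none overlapping in replicate 1. The regions of tasp-1, a threonine aspartase gene, and Y48E1B.3 (pooled 72.0 and 71.6) were likewise missing from replicate 1. From replicate 2 the strongest missing were hpa-1 (67.8), mys-1 (66.9), which encodes a MYST-family histone acetyltransferase, and nlt-1 (66.7). For hpa-1 the overlapping region in replicate 1 had a signal of 49.4. A region of lpd-3, with a pooled signal of 62.0, overlapped no ranked region in either replicate, 1 of 3 such cases.

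**Figure D3:**
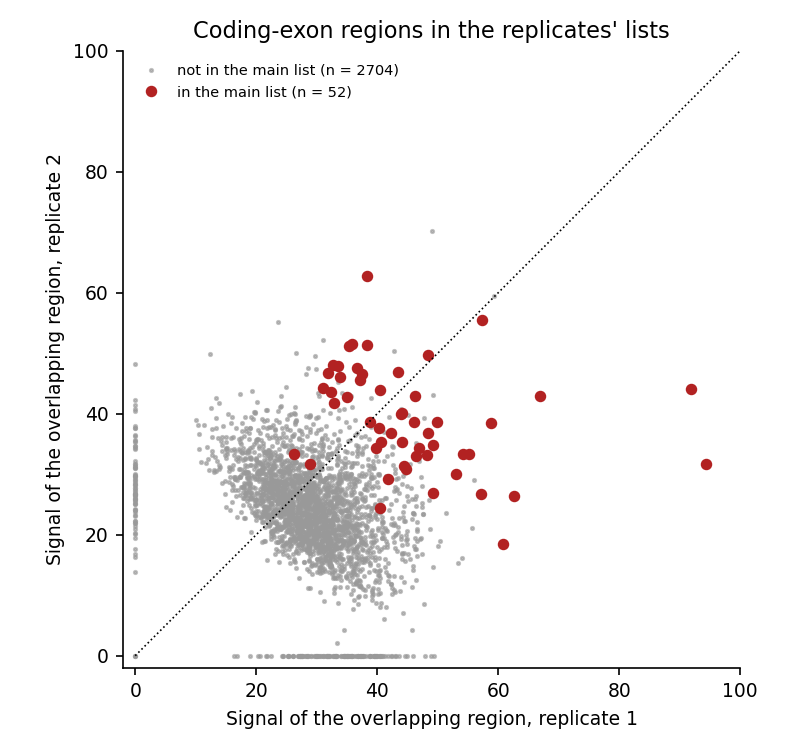
Signal of the ranked region overlapping each of the 2756 coding-exon regions in replicate 1 (horizontal) and replicate 2 (vertical), on the authors' unstated scale, with 0 where none overlapped; red points are the 52 in the main list and the dotted line marks equal values. The red points lie mainly along the upper right edge of the cloud, and 32 of the 52 are higher in replicate 1. Those of chd-7 (26.2 and 33.4) and gst-40 (28.9 and 31.7) lie inside it.

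Few coding-exon regions passed the authors' threshold on reproducibility, which in these lists is a score of at least 830, equal to a global irreproducible discovery rate (IDR) of 0.01. The main list held 52 of the 2756, or 1.89% (1.41% to 2.47%), beside 2.35% of all 10000 strongest regions and 0.198% of the whole ranked list. The conservative list held 39 (1.42%, beside 1.69%), of which 29 were in both. The replicates' own lists held 3 (replicate 1, beside 0.2% of the 10000 strongest) and 1 (replicate 2, beside 0.26%). The 3 were dos-3, clc-7 and siah-1, and the 1 was W06H8.6. Promoters among the strongest passed into the main list at 3.22% (2.57% to 3.98%), introns at 2.02% and intergenic regions at 2.37%. Passing was decided by the global rate, which is built on the same reads as the signal that chose the regions, so these shares are descriptions.

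The 52 were mostly, but not wholly, the strongest. Their pooled signal ran from 51.8 to 128 with a median of 81.1, and 1550 coding-exon regions had a signal at or above the lowest of them. That lowest was in chd-7, encoding a chromodomain helicase, at rank 5676 with 26.2 in replicate 1 and 33.4 in replicate 2. The other below rank 1000 was in gst-40, a glutathione S-transferase gene, at rank 2210 (28.9 and 31.7). The ranks in replicates 1 and 2 were 12683 and 1702 for the chd-7 region and 7957 and 2474 for the gst-40 region. Further passing regions lay in genes of calcium storage (crt-1, calreticulin, 86.0), energy sensing (aakb-2, a beta subunit of AMP-activated kinase, 84.97), stress transcription (atf-7, 84.2), the presynaptic zone (rimb-1, 82.7), the outer mitochondrial membrane (vdac-1, 82.6) and the cuticle (col-108, 81.9). Others were in mnk-1 (82.5), a kinase that acts on a translation factor in other animals, ain-1 (82.0), a GW182-family partner of the microRNA Argonautes, unc-26 (80.8), the synaptojanin of synaptic vesicle recycling, and npp-11 (80.2), a nuclear pore protein. Also passing were drp-1 (77.6), the dynamin of mitochondrial division, sdc-2 (77.4), which starts X dosage compensation, and eif-3.B (77.2), a translation initiation subunit. The nuclear receptor genes nhr-40 (77.2), nhr-277 (76.8) and nhr-41 (73.7) each had 1 passing region. Of the 52, 12 were in the last coding segment, beside 17.5% of all 2756, and 2 held repeated sequence, beside 6.31%. All 52 had an overlapping region in both replicates, beside 92.2% of the 2756.

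Besides the 52, the 2 ZC247.1 regions of highest signal had scores of 1000, past the threshold, and were not in the main list. They lie on chromosome I at 10270674 to 10270983 and 10266757 to 10267066, both inside the eighth coding segment of the gene, which is 11161 bp long. Within 100 bp of their summits they held 170 and 117 words of 32 bases that occur again elsewhere in the genome, of 170 possible. The sources used here give no reason for this.

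Around ets-5 itself, 6 coding-exon regions lay within 20 kb of the gene (X, 5076635 to 5084526), in DNA of which the transgene carries an unstated part. They were in clc-7 (122), vit-2 (102.9 and 63.5), acn-1 (80.6 and 47.7), an angiotensin-converting-enzyme-like gene needed for molting, and pnk-4 (46.9), a pantothenate kinase gene. The first acn-1 region had 35.8 in replicate 1 and 51.5 in replicate 2, and that of pnk-4 had 12.3 and 49.9. The 2 vit-2 regions overlap each other and share 1 overlapping region in each replicate, so their replicate values, 57.2 and 55.4, are the same numbers. None of the 6 was in a coding segment of ets-5. The part played by the transgene's copy number was not tested.

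The strongest coding-exon regions were richer in GC than the lower ranked ones. Within 100 bp of the summit the median GC content was 43.8% (43.3% to 43.8%), against 40.8% in the lower ranked coding-exon regions and 39.8% around eligible coding bases. It declined steadily with rank, from 48.3% in the 41 coding-exon regions of the top 250 to 42.8% in ranks 5001 to 10000 and 39.8% in the last bin. When the 10000 strongest were taken from the list of either replicate alone, the median in coding exons was 43.3% in both. High examples were swsn-1 with 66.7%, rsr-1, a serine-arginine-rich nuclear protein gene, with 65.2%, col-108 with 64.2% and afd-1 with 61.2%. Low ones were nhr-40 with 34.3% and atf-7 with 36.8%, so a GC-rich window was not shared by every strong region.

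Counted per length of sequence, the gradient was steep. Eligible coding sequence with a GC content under 35% held 4.02 of the strongest coding-exon regions per 100 kb, that of 40% to 45% held 17.97, that of 50% to 55% held 42.2, and that of 55% or more held 61.1. Lower ranked regions rose much less over the same classes, from 107 to 195 per 100 kb. Stated as a share of ranked regions, 3.61% (3.05% to 4.24%) of the coding-exon regions under 35% GC were among the 10000 strongest, and 23.8% (20.7% to 27.2%) of those at 55% or more. Regions in other places went from 3.43% to 21.1%. The gradient was thus of like size outside coding sequence, with the intervals overlapping in 5 of the 6 classes. In the other, 40% to 45%, the share was 9.73% (9.13% to 10.4%) in coding exons and 11.38% (10.9% to 11.8%) elsewhere. How far GC content affects recovery of DNA in the assay was not tested.

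By distance from the summit, mean GC content in 25 bp was 47.0% at the summit of the strongest coding-exon regions, 42.1% at 100 bp before it and 38.6% at 250 bp before it. In the lower ranked ones it was 43.8%, 39.5% and 37.9%. The coding share of positions also fell, from 100% at the summit, by the placement rule, to 54.6% at 250 bp, and its part in the slope was not tested. In the 829 regions that lay wholly inside 1 coding segment, mean GC content was 47.4% at the summit and 46.1% at 100 bp before it. The 6005 wholly coding lower ranked regions had 44.5% and 44.1% at these points. At 100 bp before the summit, GC content in wholly coding regions was near its summit value. At 250 bp before it, GC content was 41.7% in the strongest wholly coding regions and 40.8% in the lower ranked. There 75.3% and 78.1% of positions were coding. The strongest had the higher GC content at each point.

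**Figure D4:**
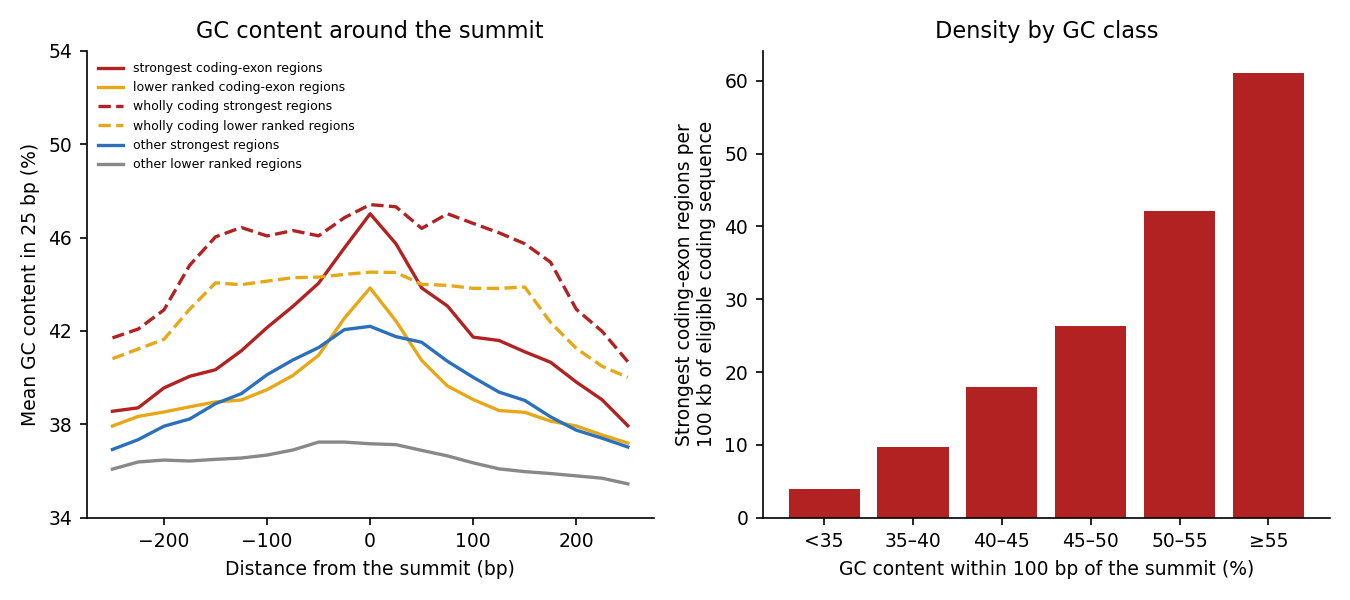
Left, mean GC content in 25 bp by distance from the summit, for coding-exon regions (all, and those wholly inside a coding segment) and for other places; right, strongest coding-exon regions per 100 kb of eligible coding sequence in 6 classes of GC content. At the summit the strongest coding-exon regions have 47.0% and the lower ranked 43.8%, and the density goes from 4.02 to 61.1 per 100 kb.

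The ETS word CCGGAA was about as frequent as in lower ranked coding-exon regions of the same GC content. It occurred within 100 bp of the summit in 288 of the 2756 regions, 10.4% (9.33% to 11.7%), against 8.90% of the lower ranked coding-exon regions. When those were weighted to the same GC classes, the share was also 10.4%. In the class of 40% to 45% GC, it was 10.5% of the strongest and 9.30% of the lower ranked, and in that of 50% to 55% it was 14.4% and 15.1%. Among the strongest regions in other places it was 11.1%. Regions with the word had a median pooled signal of 53.2 and those without it 52.7. Of the 52 passing regions, 6 held it, dos-3 and ain-1 among them. Per 1000 regions there were 64.6 copies of the word within 50 bp of the summit and 45.4 at 150 to 200 bp. In the lower ranked regions the numbers were 54.8 and 48.6. GC content is also higher near the summit, and its part in this was not tested.

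Other words differed by under 3 points once GC content was taken into account. The core GGAA was in 92.3% of the strongest and 92.0% of the GC-weighted lower ranked regions, a share too high to separate anything in a window this wide. CGCGCA was in 2.21% (1.70% to 2.83%) and 1.92%, but in 5.26% of the strongest regions in other places, and GCGCGC was in 0.726% and 0.514% against 2.80%. AAAAAA was in 24.3% of the strongest and 31.6% of the lower ranked, and in 24.8% of the latter after weighting. Of all 2080 words of 6 bases, counting a word and its complement as 1, 124 differed by more than 3 points before weighting and 0 after it. A limit in points leaves out relative differences in rare words, such as GCGCGC at 0.726% against 0.514%. After weighting, the word furthest below the lower ranked regions was TGAAAA, at 31.97% against 34.4%, and the one furthest above them was AAGAGC, at 16.6% against 14.5%. A match shows only that the letters are present, not that a factor binds there.

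Within the gene, the strongest coding-exon regions were placed like coding sequence in general, apart from longer exons. Inner coding segments held 2246 (81.5%), last segments 481 (17.5%, 16.1% to 18.9%), first segments 21 and single-segment genes 8. Among eligible coding bases the last segment held 16.8%. With the coding sequence cut into 5 equal parts, from its start, the shares were 8.60%, 18.7%, 23.7%, 25.8% and 23.2%, against 8.08%, 19.1%, 23.8%, 24.9% and 24.2% of eligible bases. The low first share follows from the exclusion of start sites. The coding segment holding the summit had a median length of 347 bp (336 to 362), against 291 bp in the lower ranked and 280 bp for eligible bases. The median distance of the summit to the nearest end of the segment was 91 bp (87 to 95) and 67 bp. Along with this, 30.1% (28.4% to 31.8%) of the strongest and 22.3% of the lower ranked lay wholly in coding sequence. Distances to the nearest start site were close, with medians of 1560 bp and 1514 bp.

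Across chromosomes the counts were 497 on I, 432 on II, 491 on III, 435 on IV, 492 on V and 409 on X. At the rate of each GC class over all coding sequence, the chromosomes would hold 472, 477, 438, 419, 536 and 414. Chromosome III stood above that number (Poisson interval of the count 449 to 536). The count on II was below it, with an interval ending just short of it (392 to 475). That on V was below it with an interval that reaches it (449 to 537). These intervals treat regions as independent and are not adjusted for the number of chromosomes, so no chromosome is called different by them.

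Repeated sequence was uncommon in these regions. Words of 32 bases that recur elsewhere in the genome were found in the windows of 174 (6.31%, 5.43% to 7.29%), against 6.93% of the lower ranked coding-exon regions. In the strongest regions of other places they were found in 12.3% at promoters, 30.9% in introns and 31.0% between genes. In the 200 in untranslated exons the share was 8.5% (5.03% to 13.3%), an interval that overlaps that of the coding-exon regions. At least 85 such words were held by 35 coding-exon regions. A read from such a window may belong to another copy, and the sources used here do not say how reads with several matches were placed. Overlap with noncoding genes was rare here and in the lower ranked coding-exon regions. An annotated ncRNA was overlapped by 7 regions (0.254%), beside 0.216% of the lower ranked. A piRNA gene, an antisense RNA and a pseudogene were overlapped by 1 region each (0.0363%). The lower ranked had 0.0149%, 0.108% and 0.0298% for these. Transfer, small nuclear, micro and long intergenic RNA genes had 0 in both groups. Small nucleolar RNA genes had 0 beside 0.0149%.

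The 2756 regions lay in 2350 genes, 11.8% of 19973 protein-coding genes and 13.2% of the 17752 that have any eligible coding sequence. Of these, 2034 held 1 region, 251 held 2 and 65 held 3 or more. The share of genes with a region followed their length, from 3.89% of those with up to 500 bp of eligible sequence to 66.1% of those with more than 5000 bp. Per 100 kb of eligible sequence the number stayed between 14.2 and 16.3 over all 5 length classes, with 15.4 in all coding sequence. Counts of regions per gene are therefore read below per 100 kb.

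The 9 genes with most regions ranged from giant genes to ones with under 5000 bp of eligible sequence, and their density differed. The titin gene ttn-1 held 7 in 54369 bp of eligible sequence, or 12.9 per 100 kb, below the average, with signals from 47.2 to 63.9. The obscurin gene unc-89 held 5 (20.9 per 100 kb), and let-805, which encodes the myotactin of muscle attachment through the epidermis, held 6 (45.5 per 100 kb, GC median 49.5%). Of the chromatin genes, set-26, encoding a SET-domain protein that reads histone H3 methylation, held 5 in 4535 bp (110 per 100 kb), set-16, an MLL-type histone methyltransferase gene, 5 (69.9 per 100 kb), and chd-7, 5 (56.2 per 100 kb). The windows of set-26 and set-16 were rich in GC, with medians of 58.2% and 56.2%, and all 5 of set-26 held repeated words. The ubiquitin ligase gene eel-1 held 5 (41.3 per 100 kb, GC median 52.2%) and F55F10.1 held 5 (39.7 per 100 kb). The yolk gene vit-2 held 5 (115.2 per 100 kb), and all 5 held words repeated elsewhere. Of these, 2 overlap each other and lie within 20 kb of ets-5.

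The values of set-16 show how unequal the replicates could be inside 1 gene. Its strongest region had a pooled signal of 67.4, with 50.1 in replicate 1 and 18.2 in replicate 2, while another had 55.2, with 20.5 and 34.3. In let-805 the strongest had 64.8 (25.2 and 33.7) and another 49.6 (38.5 and 16.3). Neither replicate was the higher one throughout either gene.

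Gene lists were read in the same way, as regions found beside the number that coding sequence of the same length and GC content held over all genes, with exact Poisson intervals on the count and no adjustment for the number of lists. Cytoskeleton and motor genes had 27 regions (17.8 to 39.3) in 20 of 92 genes, where their sequence at the all-gene rate would hold 41.4. The strongest were in sma-1 (65.5; 33.8 in replicate 1, 29.2 in replicate 2), a heavy spectrin, spc-1 (64.9), the alpha spectrin, and dyci-1 (61.8), a dynein intermediate chain. Basement membrane and adhesion genes had 37 (26.1 to 51.0) in 19 of 40, beside 51.3. They were led by clc-7, whose region lies within 20 kb of ets-5, cdh-1 (68.9), a cadherin, and vab-10 (66.0), a spectraplakin. Muscle and sarcomere genes had 30 (20.2 to 42.8) in 14 of 43, beside 40.3, with ttn-1 (63.9) and dim-1 (63.0), a muscle immunoglobulin-domain protein, at the top. The number at the all-gene rate lay above the interval for the cytoskeleton list and just above it for the adhesion list. For the muscle list it lay inside the interval. These intervals treat regions as independent, though 1 gene can hold several, so they describe the counts and no list is called different by them.

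Regions were found in 46 of 194 cuticle collagen genes (23.7%), 53 in all and 32.4 per 100 kb, beside 15.4 in all coding sequence. Their eligible sequence had a median GC content of 50.2%, and at the all-gene rate for that composition it would hold 59.7, within the interval of the count (39.7 to 69.3). The strongest were col-108 (81.9; 48.19 in replicate 1, 33.2 in replicate 2), col-130 (69.7; 38.8 and 31.3) and col-109 (64.9; 35.1 and 33.6), with windows of 64.2%, 63.2% and 59.2% GC. Collagen genes resemble each other, and 14 of the 53 windows held repeated words.

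Chromatin regulators had 35 regions (24.4 to 48.7) in 18 of 39 genes, beside 23.6 at the all-gene rate, a number just below the interval. The 2 in the main list were in swsn-1 (87.5; 40.5 in replicate 1, 43.9 in replicate 2) and chd-7. Of the 35, 15 were in set-16, set-26 and chd-7, so the count rests largely on 3 genes. Synaptic and pan-neuronal genes had 31 (21.1 to 44) in 18 of 40, beside 23.5, with rimb-1 (82.7; 36.6 and 47.5), unc-57 (82.5; 23.7 and 55.1), the endophilin of vesicle recycling, and unc-26 (80.8; 37.4 and 46.6) at the top. All 3 were higher in replicate 2. Protein kinases of signalling had 37 (26.1 to 51.0) in 30 of 107, beside 28.2, with mnk-1 (82.5) and sek-1 (70.5), a MAP kinase kinase of stress and immunity, leading. Both numbers lie within the intervals of the counts.

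Translation genes were dense in regions, though the counts are small. Elongation and initiation factors had 37.0 per 100 kb, aminoacyl-tRNA synthetases 27.7 and ribosomal proteins 58.9, beside 15.4 in all coding sequence, and each number at the all-gene rate for their GC content lay inside the interval of the count. The factors had 14 (7.65 to 23.5) in 13 of 44 genes, beside 8.01, with eif-3.B (77.2; 44.5 in replicate 1, 31.3 in replicate 2) and eef-1B.2 (76.7; 42.9 and 30.1) at the top. The synthetases had 13 (6.92 to 22.2) in 12 of 31, beside 7.87, led by kars-1 (62.2), the lysyl enzyme. Ribosomal proteins, whose genes are short, had 5 (1.62 to 11.7) in 4 of 81 genes, beside 2.399, with rps-2 (61.7) and rpl-7A (60.9) strongest and 3 of the 5 windows repeated. Histone genes, also short, had 0 in 81 genes and 2880 bp of eligible sequence, where the all-gene rate gives 0.934.

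For each of the lists that follow, the number at the all-gene rate lay inside the interval of the count. Chaperones had 12 beside 9.46, with dnj-28 (76.0), a DnaJ protein, hsp-90 (71.2; 30.2 in replicate 1, 39.5 in replicate 2) and hsp-6 (57.6), the mitochondrial HSP70, strongest. The proteasome had 5 beside 4.55, ubiquitin ligases and the CDC-48 segregase 18 beside 16.3, and the spliceosome with RNA helicases 18 beside 15.1. Nuclear pore genes had 8 beside 10.9. Fat metabolism genes had 28 beside 25.2, led by acs-16 (70.5), an acyl-CoA synthetase, with fasn-1 (61.9), the fatty acid synthase, and atgl-1 (61.7), the fat-storage lipase. Calcium and calmodulin signalling genes had 15 beside 13.7, with mca-2 (69.3), a plasma membrane calcium pump, and egl-19 (58.5), a voltage-gated calcium channel, after crt-1. Respiratory chain genes had 9 beside 8.36 and the vacuolar ATPase 4 beside 3.30, with atp-2 (64.7) and vha-10 (57.8) their strongest subunits. The vitellogenins had 7 beside 7.18.

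For the BAG neuron, neuropeptide and transcription factor lists too, the number at the all-gene rate lay inside the interval of the count. Of the 20 BAG neuron genes, only egl-44, a TEA-domain transcription factor gene, held 1 (49.96; 25.7 in replicate 1, 21.8 in replicate 2), beside 2.37 at the all-gene rate (interval of the count 0.0253 to 5.57). Of 9 ETS-domain genes, ets-5 included, only ast-1, a regulator of dopaminergic neuron fate, held 1 (50.7; 27.2 and 22.4), beside 1.31. Neuropeptide genes had 3 beside 2.74, in nlp-13 (63.5), ins-37 (59.5, with no overlapping region in replicate 1) and nlp-76 (46.9). Nuclear hormone receptors had 25 (16.2 to 36.9) in 24 of 270 genes, beside 28.0, with 3 in the main list, and ceh homeobox genes had 6 beside 6.77, of which ceh-92 (60.1) was the strongest.

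**Figure D5:**
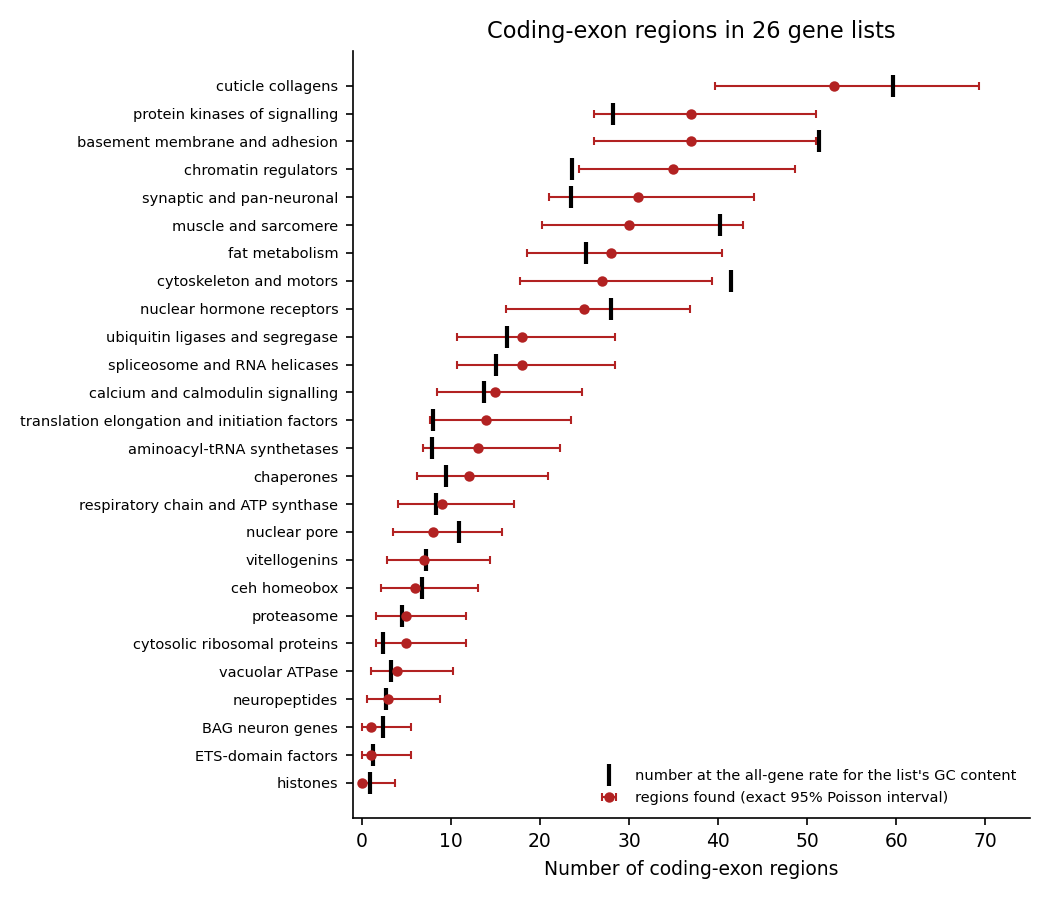
Number of strongest coding-exon regions in each of 26 gene lists (red, with exact 95% Poisson intervals) and the number that eligible coding sequence of the same length and GC content held over all genes (black bars). For 23 lists the bar is inside the interval; cytoskeleton and basement membrane genes lie below it and chromatin regulators above it.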

How the data were processed

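The labels describe ChIP-seq of whole L1 larvae, 1 strain and 2 biological replicates, on build ce11. Peak caller, aligner and their versions are not stated in the labels or headers. The deposited signal came from the authors' peak calling, with no scale stated. The deposited score is 125 times the −log2 of the global irreproducible discovery rate, at most 1000, which was checked on the list with a largest difference of 1. The deposited −log10 of that rate is the authors' too. All values are per region, so read depth is unknown.

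Regions were placed on Ensembl release 115 (WBcel235) with python 3.11.15, numpy 2.4.6, pandas 2.3.3 and scipy 1.17.1. An overlap was 1 bp or more. Words were counted in either orientation up to 100 bp from the summit. Repeated sequence means words of 32 bases found at more than 1 place in the genome. Eligible coding bases were described from every 100th. Shares have exact binomial intervals, medians binomial order-statistic intervals and counts exact Poisson intervals, all 95%. No significance test was run, since there is 1 group and the regions were chosen by signal. The scripts were tested on simulated data.

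Named regions are the 20 of highest pooled signal, the 5 highest in each replicate, the genes with most regions, up to 3 per gene list, those within 20 kb of ets-5 and 3 on each side of the limit. The passing regions and those missing from a replicate were named after their values were seen. The regions and the 26 gene lists were chosen with earlier results of these data known. Lists were drawn by gene name, so a few names belong elsewhere, such as lpd-3 in the respiratory list, and 5 names (C33A11.4, T08H4.3, nca-1, ricd-1 and cal-6) were not found in the annotation. The comparisons at equal GC content and those per 100 kb were added after the data were seen.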

Additional observations from a re-analysis of the deposited data

How the results depend on the processing

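The main values of the 2756 coding-exon regions were recomputed under each alternative, and 27 left the 95% interval of the reported value while 62 stayed within it. With the 5000 strongest regions, presence in both replicates was 94.6% (reported 92.2%), the main list held 3.82% (reported 1.89%), the GC median was 44.8% and 7.60% of host genes held more than 1 region (reported 13.4%). At more than 1000 bp from start sites the coding-exon share of the strongest was 19.65% (reported 27.6%) and the share on X 16.9% (reported 14.8%). With gene starts only, the coding-exon share was 30.76%. In the list that compares the replicates, presence in both was 93.3%. Without windows holding repeated words, the share was 31.87%, presence 91.0% and host genes with more than 1 region 14.9%. Presence was 89.8% at an overlap of 50% and 82.8% with summits within 100 bp. A global rate of at most 0.05 was met by 16.5% and one of at most 0.005 by 0.617%. For these limits, and for the main list with the 5000 strongest, the matching shares of regions in other places were not computed. The 16.5%, 0.617% and 3.82% therefore describe the coding-exon regions only and do not compare them with other places. With 50 bp on each side of the summit, GC was 45.5% and the ETS word was in 5.66%. With 150 bp these were 42.9% and 14.5%. Using the list of 1 replicate alone, the coding-exon share ran from 24.8% to 28.82%, presence in both from 80.5% to 87.0%, the exon median from 324.5 to 333 bp (reported 347), host genes with more than 1 region from 12.1% to 12.7% and the share on X from 13.95% to 16.4%. The cause of these shifts was not tested, apart from narrower windows and stricter limits, which change the value by construction. Merging overlapping regions, leaving out the ets-5 interval and using the longest transcript moved no value past its interval. No paired analysis was possible because there is 1 group. The alternative without repeated words gives no value for repeated sequence.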
